A study of Mus musculus with 18 samples.

Results

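Crabp2, Dnajc7, Serinc5, Rab5b, Hdac9, Zkscan5, Aldh7a1, Pla2g7, Mctp1 and Abcd2 are 10 genes, of 18194 with a probeset of their own, that were chosen by the measured difference in their levels between bone marrow of DRAI+ mice and of DRAI- mice. That difference was selected on, so it is given below as a description with no test. The tests concern contrasts and slopes that the choice did not use directly. The 10 genes had 18 probesets of 45101, counting only probesets annotated to a single gene symbol, and each gene's brightest probeset stood for it unless stated. Crabp2, Dnajc7, Serinc5, Rab5b and Hdac9 read lower in DRAI+ marrow and the other 5 higher. All 10 passed the filter on low values, a mean log2 level of at least 3.30, and belonged to the 14505 genes tested.

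The marrow came from C57Bl6 mice, some unmodified and the others engineered to overexpress CCAT2, a human long non-coding RNA of which a G and a T allele exist, throughout the body. Flash-frozen marrow cells of 18 mice were profiled on Affymetrix mouse arrays: 4 wild-type (WT) mice, 4 CCAT2-G mice, 4 CCAT2-T mice and 6 CCAT2-GT mice. In the study's terms the 8 CCAT2-G and CCAT2-T mice formed the DRAI- group and the 6 CCAT2-GT mice the DRAI+ group, while WT mice carried no DRAI status. The labels do not expand DRAI, and the transgene's promoter, the number of founder lines and the age of the mice could not be taken from the labels. The labels call each array a biological replicate, so the spread given is that between mice.

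Bone marrow is a mixture in which B-lineage cells and myeloid cells, that is neutrophils and monocytes, make up much of the nucleated population, and each lineage carries its own gene programme. A gene used mainly by one lineage therefore reads higher in a marrow that holds more of that lineage, whatever happens inside the cells. The 10 genes serve different processes: a co-chaperone (Dnajc7), a membrane protein of lipid supply (Serinc5), a chromatin enzyme (Hdac9), an endosome regulator (Rab5b), a retinoic acid carrier (Crabp2), a lipase of the blood (Pla2g7), a peroxisomal transporter (Abcd2), a calcium-binding membrane protein (Mctp1), a zinc finger protein (Zkscan5) and an aldehyde-oxidising enzyme (Aldh7a1).

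The promoters of the 5 genes shown here are those of 4 members whose brightest probeset moved together with the B-lineage genes and of 1, Mctp1, that moved against them. A second probeset of Rab5b moved the other way. The promoters run from 250 bases before to 50 bases after the start of transcription, 5′ to 3′ on the gene's own strand, and were taken from RefSeq on build GRCm38.p6. Promoters of 6 of the 10 genes were matched, 8 in all because Dnajc7 and Hdac9 have an alternative start. For the 5 genes shown the first is printed. Pla2g7, which also moved against the B-lineage genes, was matched but is not printed. Capitals mark either of these motifs: CAGCTG, an E-box that E2A proteins bind, which reads alike on both strands, and GAGGAA, the core bound by PU.1, which reads TTCCTC on the other strand.
Dnajc7 promoter, chr11:100619578-100619877, minus strand: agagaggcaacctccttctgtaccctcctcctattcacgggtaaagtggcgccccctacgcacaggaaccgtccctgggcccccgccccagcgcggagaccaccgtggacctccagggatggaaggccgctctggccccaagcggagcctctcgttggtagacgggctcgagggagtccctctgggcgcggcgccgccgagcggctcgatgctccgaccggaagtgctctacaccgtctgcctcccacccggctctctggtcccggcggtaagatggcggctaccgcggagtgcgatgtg
Serinc5 promoter, chr13:92610888-92611187, plus strand: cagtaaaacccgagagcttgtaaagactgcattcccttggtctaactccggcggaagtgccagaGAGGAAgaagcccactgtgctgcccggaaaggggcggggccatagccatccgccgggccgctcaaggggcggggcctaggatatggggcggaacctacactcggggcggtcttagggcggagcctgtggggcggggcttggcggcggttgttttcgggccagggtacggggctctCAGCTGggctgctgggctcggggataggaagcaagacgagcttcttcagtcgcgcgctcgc
Hdac9 promoter, chr12:34917046-34917345, minus strand: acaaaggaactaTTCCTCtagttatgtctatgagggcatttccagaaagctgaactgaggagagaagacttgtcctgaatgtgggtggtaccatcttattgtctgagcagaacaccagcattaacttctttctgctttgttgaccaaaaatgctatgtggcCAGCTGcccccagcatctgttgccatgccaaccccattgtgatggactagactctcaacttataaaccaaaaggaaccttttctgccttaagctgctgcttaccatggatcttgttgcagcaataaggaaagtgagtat
Rab5b promoter, chr10:128696219-128696518, minus strand: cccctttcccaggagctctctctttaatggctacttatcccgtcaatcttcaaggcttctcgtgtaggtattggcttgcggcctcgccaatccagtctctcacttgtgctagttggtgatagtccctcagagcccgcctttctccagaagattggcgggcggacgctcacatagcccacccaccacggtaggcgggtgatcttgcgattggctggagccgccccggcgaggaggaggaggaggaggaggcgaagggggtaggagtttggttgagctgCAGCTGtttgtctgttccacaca
Mctp1 promoter, chr13:76579347-76579646, plus strand: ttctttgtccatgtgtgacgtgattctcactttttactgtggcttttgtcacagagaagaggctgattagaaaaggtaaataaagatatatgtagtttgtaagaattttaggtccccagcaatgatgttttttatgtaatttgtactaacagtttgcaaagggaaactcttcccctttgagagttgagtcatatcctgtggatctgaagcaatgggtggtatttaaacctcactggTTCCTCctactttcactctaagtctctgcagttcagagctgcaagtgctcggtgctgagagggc
The E-box CAGCTG stood in the windows of Serinc5, Rab5b and both Hdac9 starts, and in 16.3% of all 32851 promoters of the table. GAGGAA stood in those of Serinc5, Mctp1 and both Hdac9 starts, and in 28.3% of all promoters. Neither was found in the windows of Dnajc7 or Pla2g7, and CCCNNGGG, the core bound by EBF (13.7% of promoters), CAGGTG, a second E-box (20.2%), and TGTGGT, a RUNX site (16.8%), were found in none of the 8 windows. These matches describe letters and say nothing of binding.

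Across the series the arrays were close in scale, with medians from 4.27 to 4.40 on the log2 scale of the deposited values. Of these, 5 arrays had a narrow spread of values (the first and second of the WT and of the CCAT2-T mice, and the first CCAT2-G mouse). Lineage content was summarised by 2 scores, each the mean log2 level of marker genes. The B-cell score joined 43 measured markers of mature and precursor B cells of 45 listed, and the myeloid score 41 markers of neutrophils and monocytes of 48 listed. No gene passed the test of DRAI+ minus DRAI- in limma after Benjamini-Hochberg adjustment, 0% of 14505 (the smallest adjusted p was 0.490, and 1402 genes had an unadjusted p under 0.05). None of the 10 genes is therefore called in that comparison.

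No gene of 15 marker lists was called in DRAI+ minus DRAI-, and the lists are described by their counts and medians. Of the mature B-cell markers 27 of 27 had lower means in DRAI+ marrow, with a median difference of -1.26, and of the B-cell precursor markers 15 of 16, median -0.98, where the median over all genes was -0.01. Means were higher for 20 of 21 monocyte markers (median 0.45), 12 of 12 immediate early genes (0.49), 10 of 13 eosinophil, basophil and mast cell markers (0.48) and 8 of 9 granulocyte precursor markers (0.38), and the neutrophil median was 0.09. Single mice differed widely in the immediate early mean, from 6.27 to 9.53 in DRAI+ and from 6.19 to 9.62 in DRAI- mice. The eosinophil, basophil and mast cell mean ran from 5.95 to 8.21 and from 5.63 to 7.68. Megakaryocyte markers were higher in 15 of 15, median 0.66, but without the 3 arrays richest in stroma markers (WT replicate 4 and CCAT2-GT replicates 4 and 6) 12 of 15 were lower, median -0.26. The stroma, bone and endothelium median likewise went from 0.32 to -0.28, while those of the mature B-cell (-0.93) and monocyte markers (0.41) kept their sign. Medians of the remaining lists lay between -0.26, for dendritic cells, and 0.03, for plasma cells. Xist, which female cells express, lay above a log2 value of 7 in 3 of 6 DRAI+ mice, 1 of 8 DRAI- mice and 0 of 4 WT mice; without these 4 arrays the members' differences between the DRAI groups kept their direction, from -1.04 for Dnajc7 to 0.98 for Pla2g7. The B-cell score ran from 5.47 to 7.28 in the 6 CCAT2-GT mice and from 5.79 to 8.23 in the 8 DRAI- mice. A single DRAI- mouse, CCAT2-G replicate 3, lay at 5.79, with the highest myeloid score of the 18 mice, 9.97. The next lowest B-cell score among DRAI- mice was 6.96. In such bulk samples, fewer cells of a type and less RNA per cell cannot be told apart.

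Dnajc7, which encodes a J-domain protein that passes client proteins between the Hsp70 and Hsp90 chaperones, read 8.28, 8.49, 7.96 and 7.60 in the WT mice, 8.50, 8.41, 7.53 and 8.93 in the CCAT2-G mice and 8.51, 8.23, 8.72 and 8.38 in the CCAT2-T mice. In the CCAT2-GT mice its lowest, median and highest levels were 6.85, 7.45 and 7.90. CCAT2-G replicate 3 was the one DRAI- mouse within the range of the DRAI+ mice, and WT replicate 4 also lay within it. The difference, DRAI+ minus DRAI-, was -1.02 ± 0.21 (log2, SE, 6 against 8 mice).

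Serinc5 encodes a membrane protein that aids the use of serine in phospholipid and sphingolipid synthesis and lowers the infectivity of retroviruses. Its levels were 7.66, 7.56, 7.34 and 6.97 in the WT mice, 7.73, 7.59, 6.55 and 7.75 in the CCAT2-G mice, and 7.43, 7.73, 7.58 and 7.26 in the CCAT2-T mice. The CCAT2-GT mice ran from 6.44 through a median of 6.67 to 7.04. CCAT2-G replicate 3 again lay among the DRAI+ mice, and every other DRAI- mouse lay above them. The groups differed by -0.75 ± 0.18.

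Hdac9, a class IIa histone deacetylase that represses MEF2 transcription factors, read 5.25, 5.32, 4.66 and 4.61 in the WT mice. Levels were 5.15, 5.39, 3.97 and 6.00 in the CCAT2-G mice and 5.39, 5.43, 5.63 and 5.43 in the CCAT2-T mice. The CCAT2-GT mice had a lowest value of 3.64, a median of 4.40 and a highest value of 5.03. The ranges overlapped through CCAT2-G replicate 3 only, WT replicates 3 and 4 lay inside the DRAI+ range, and the difference was -0.93 ± 0.25.

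Rab5b, a small GTPase of early endosomes, read 5.72, 5.78, 5.10 and 5.33 in the WT mice, 5.52, 5.52, 5.39 and 5.53 in the CCAT2-G mice, and 5.70, 5.66, 5.50 and 5.37 in the CCAT2-T mice. The CCAT2-GT mice ran from 4.81 through 5.02 to 5.33. Rab5b was the one member whose DRAI+ and DRAI- mice did not overlap, although the gap between 5.33 and 5.37 was small. Over all genes 0.0896% were lower in every DRAI+ mouse than in any DRAI- mouse, and 0.00689% were higher. The choice of genes used this contrast, so nothing is read from that count.

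Crabp2 carries retinoic acid to its nuclear receptors. Its mean level over the 18 mice, 3.56, was close to the filter. It read 3.76, 3.76, 3.41 and 3.39 in the WT mice, from 3.68 to 3.91 in the CCAT2-G mice, from 3.51 to 3.84 in the CCAT2-T mice and from 3.01 to 3.54 in the CCAT2-GT mice. The DRAI groups overlapped in CCAT2-T replicate 4 and CCAT2-GT replicate 5, and differed by -0.48 ± 0.10, the first rank among all lower genes by p-value. The Crabp2 mean of the DRAI+ mice, 3.28, lay just under the filter. The means of the DRAI- mice, 3.76, and of the WT mice, 3.58, lay above it. The size of the Crabp2 difference therefore rests on levels near the filter.

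Among the genes higher in DRAI+ marrow, Pla2g7 encodes the secreted phospholipase that breaks down platelet-activating factor and oxidised phospholipids. Its levels were 7.37, 7.70, 8.20 and 7.93 in the WT mice, 7.50, 7.59, 9.46 and 7.13 in the CCAT2-G mice, and 7.51, 7.66, 7.31 and 7.82 in the CCAT2-T mice. The CCAT2-GT mice ran from 8.43 through 8.73 to 9.23, above every WT mouse and every DRAI- mouse but 1. That mouse, CCAT2-G replicate 3, had the highest Pla2g7 level of all 18. The difference was 1.01 ± 0.27.

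Abcd2, which carries very long chain fatty acids into peroxisomes, read 6.01, 5.73, 6.53 and 6.54 in the WT mice, 4.93, 4.99, 7.20 and 4.89 in the CCAT2-G mice, and 5.28, 5.26, 5.44 and 5.91 in the CCAT2-T mice. The CCAT2-GT mice ran from 6.01 through 6.37 to 6.57 and lay largely inside that of the WT mice. The group difference was 0.82 ± 0.29, and 7 of the 8 DRAI- mice lay below every DRAI+ mouse. Of these 7, CCAT2-T replicate 4, at 5.91, lay inside the WT range. Against WT, DRAI- mice were lower by -0.72 ± 0.32 and DRAI+ mice differed by 0.11 ± 0.34. These values share the samples that chose the genes, so they too carry no test.

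Mctp1, a membrane protein of the endoplasmic reticulum with C2 domains that bind calcium, showed the same order. It read 6.61, 6.64, 6.89 and 6.73 in the WT mice, 6.39, 6.35, 7.32 and 6.11 in the CCAT2-G mice, and 6.10, 6.27, 6.39 and 6.39 in the CCAT2-T mice. CCAT2-GT mice ran from 6.65 through 6.92 to 7.05. Of the DRAI- mice, 7 lay below every DRAI+ mouse, and the last, CCAT2-G replicate 3, lay above them all. The difference was 0.47 ± 0.15.

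Zkscan5, a zinc finger protein with SCAN and KRAB domains, and Aldh7a1, which oxidises an aldehyde in lysine breakdown, completed the higher genes. Zkscan5 lay between 4.44 and 4.75 in the WT mice, 4.12 and 4.65 in the CCAT2-G mice, 4.23 and 4.49 in the CCAT2-T mice and 4.51 and 4.95 in the CCAT2-GT mice. Aldh7a1 lay between 4.57 and 4.97, 4.81 and 4.98, 4.45 and 4.83, and 4.82 and 5.52 in the same order of groups. Each overlapped in a few mice, and the differences were 0.42 ± 0.10 for Zkscan5 and 0.49 ± 0.11 for Aldh7a1. Aldh7a1 ranked first and Zkscan5 second by p-value among genes higher in DRAI+ marrow.

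**Figure D1:**
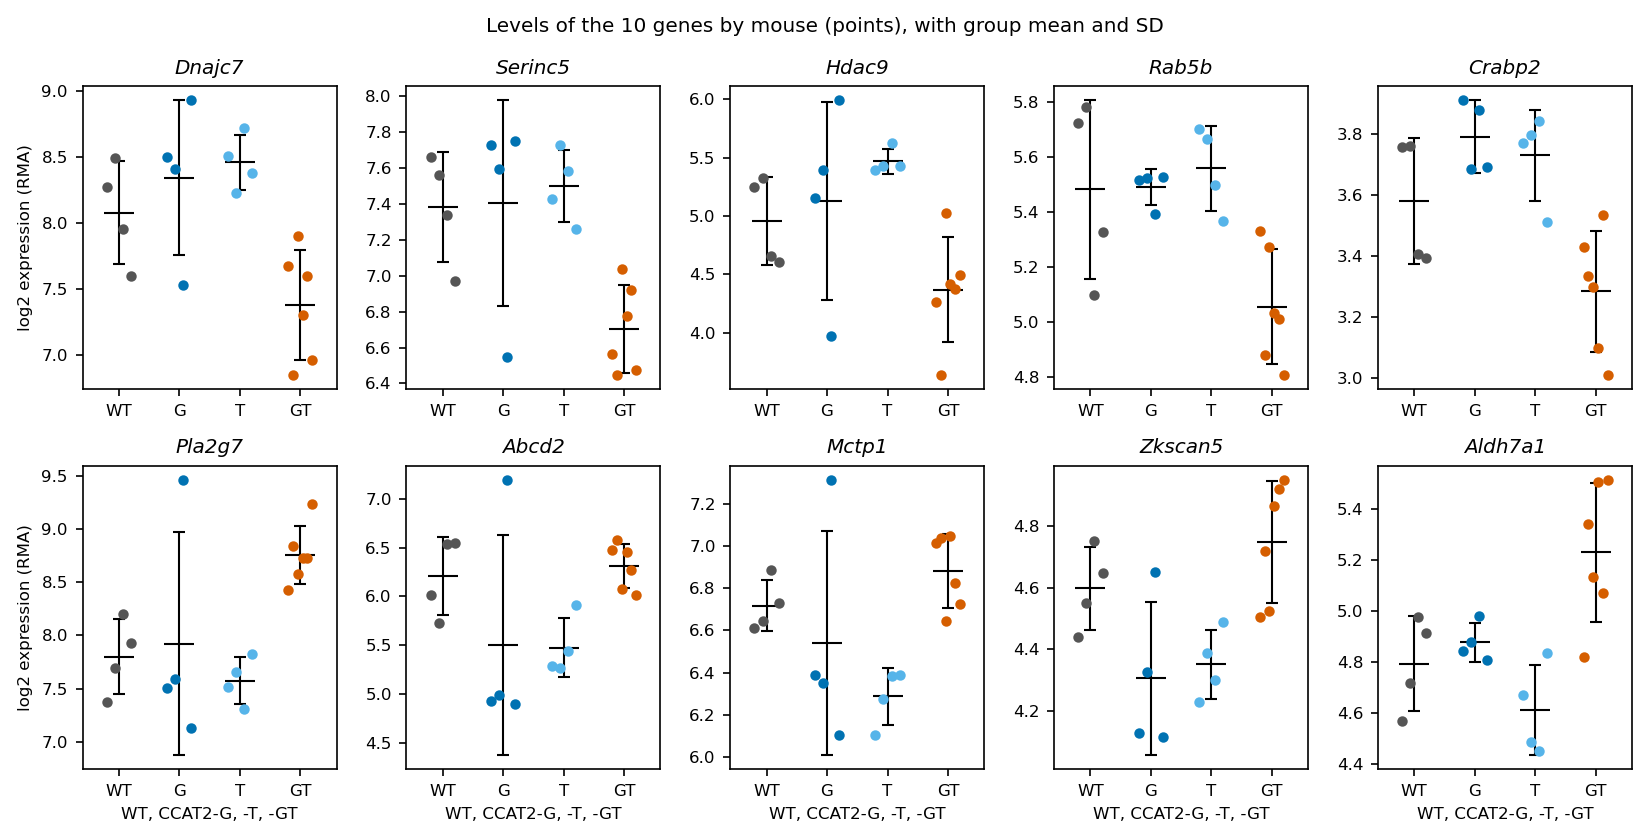
Log2 level of each of the 10 genes (brightest probeset) in each mouse by group, with the group mean and SD as bars; the vertical axes differ between genes. CCAT2-GT mice are lowest for Rab5b without overlap with CCAT2-G or CCAT2-T (highest CCAT2-GT value 5.33, lowest DRAI- value 5.37), and a single CCAT2-G mouse, replicate 3, stands with or beyond the CCAT2-GT mice for Pla2g7 (9.46) and Abcd2 (7.20).

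The ranks of the members in the contrast that chose them are a description of that choice. Ranked by p-value within each direction, Crabp2 stood 1st, Dnajc7 2nd, Serinc5 4th, Rab5b 6th and Hdac9 19th among lower genes. Among higher genes Aldh7a1 and Zkscan5 led, Pla2g7 stood 6th, Mctp1 36th and Abcd2 89th. The next gene in rank that was not a member was Cdk3 among lower genes, with a difference of -0.45 ± 0.10, and Nedd4 among higher genes, with 0.38 ± 0.10.

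WT mice did not sit with one DRAI group for all members. For Serinc5, Rab5b, Aldh7a1 and Pla2g7 the DRAI- mice lay close to WT (differences of 0.07, 0.04, -0.05 and -0.05), and DRAI+ mice differed from WT by -0.68, -0.42, 0.44 and 0.96. For Abcd2 and Mctp1 the larger distance was that of DRAI- mice, with -0.72 and -0.31 against 0.11 and 0.17 for DRAI+ mice. Zkscan5 also lay farther from WT in DRAI- mice (-0.27) than in DRAI+ mice (0.15). Dnajc7, Hdac9 and Crabp2 lay between, with DRAI+ mice at -0.70, -0.59 and -0.29 from WT and DRAI- mice at 0.32, 0.34 and 0.18. The comparisons share samples, so the values are set side by side only.

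Tests that did not use the contrast of DRAI+ and DRAI- found no change in any member between transgenic and WT marrow or between the alleles. In transgenic minus WT marrow, 14 mice against 4, 0 of the 10 genes were called by limma with Benjamini-Hochberg adjustment, and 0 had an unadjusted p under 0.05. The background was 0% of 14505 genes, with 156 at an unadjusted p under 0.05. The members' differences ran from -0.36 for Abcd2 to 0.38 for Pla2g7, with SEs of 0.30 and 0.28. In CCAT2-G minus CCAT2-T marrow, 4 mice against 4, 0 of 10 were called and 0 had an unadjusted p under 0.05, against a background of 0% and 912 genes at an unadjusted p under 0.05. Those differences ran from -0.34 ± 0.32 for Hdac9 to 0.35 ± 0.35 for Pla2g7, and the lowest adjusted p was 0.781, for Aldh7a1 (0.27 ± 0.15). The SE reached 0.37 for Abcd2 between the alleles, so these tests do not show that the levels were alike.

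Whether a member followed the B-cell content of a marrow was tested among mice of the same group, by the slope of its level on the B-cell score in a model that also held the 4 groups. Of the 10 genes, 7 had a slope past the threshold in limma with Benjamini-Hochberg adjustment over all genes (adjusted p under 0.05), where 22.6% of the other genes did. The slope was positive for 4 members (12.8% of genes) and negative for 3 (9.76% of genes). The genes were chosen with group contrasts in view, and such a choice also favours genes with little spread inside groups. Both scores differed between the DRAI groups: the B-cell means were 6.38 in DRAI+ and 7.52 in DRAI- mice, the myeloid means 9.63 and 9.36. A choice by the DRAI contrast can therefore favour genes that follow either score. The share of members called is thus not independent of the choice, and the background genes were not so chosen.

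Serinc5 rose with the score by 0.37 ± 0.06 per log2 unit (adjusted p = 0.000973 in limma), Dnajc7 by 0.43 ± 0.08 (adjusted p = 0.00180) and Hdac9 by 0.48 ± 0.10 (adjusted p = 0.00447). Rab5b rose by 0.17 ± 0.06 (adjusted p = 0.0411). Crabp2, the fifth of the lower genes, had a slope of 0.08 ± 0.06 that did not pass (adjusted p = 0.290). In the other direction Abcd2 fell with a slope of -0.56 ± 0.11 (adjusted p = 0.00398), Pla2g7 with -0.49 ± 0.11 (adjusted p = 0.00825) and Mctp1 with -0.26 ± 0.06 (adjusted p = 0.0104). Zkscan5, with -0.14 ± 0.05, and Aldh7a1, with -0.13 ± 0.06, did not pass (adjusted p = 0.0536 and 0.109). The sign of the slope was the same inside each of the 4 groups for Serinc5, Rab5b, Zkscan5, Mctp1 and Abcd2, in 3 groups for Dnajc7, Hdac9, Pla2g7 and Aldh7a1, and in 2 for Crabp2. Inside CCAT2-T the slopes of Serinc5 (0.0093) and Zkscan5 (-0.0097) were close to 0. Slopes inside a group rest on 4 to 6 mice and are descriptions.

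**Figure D2:**
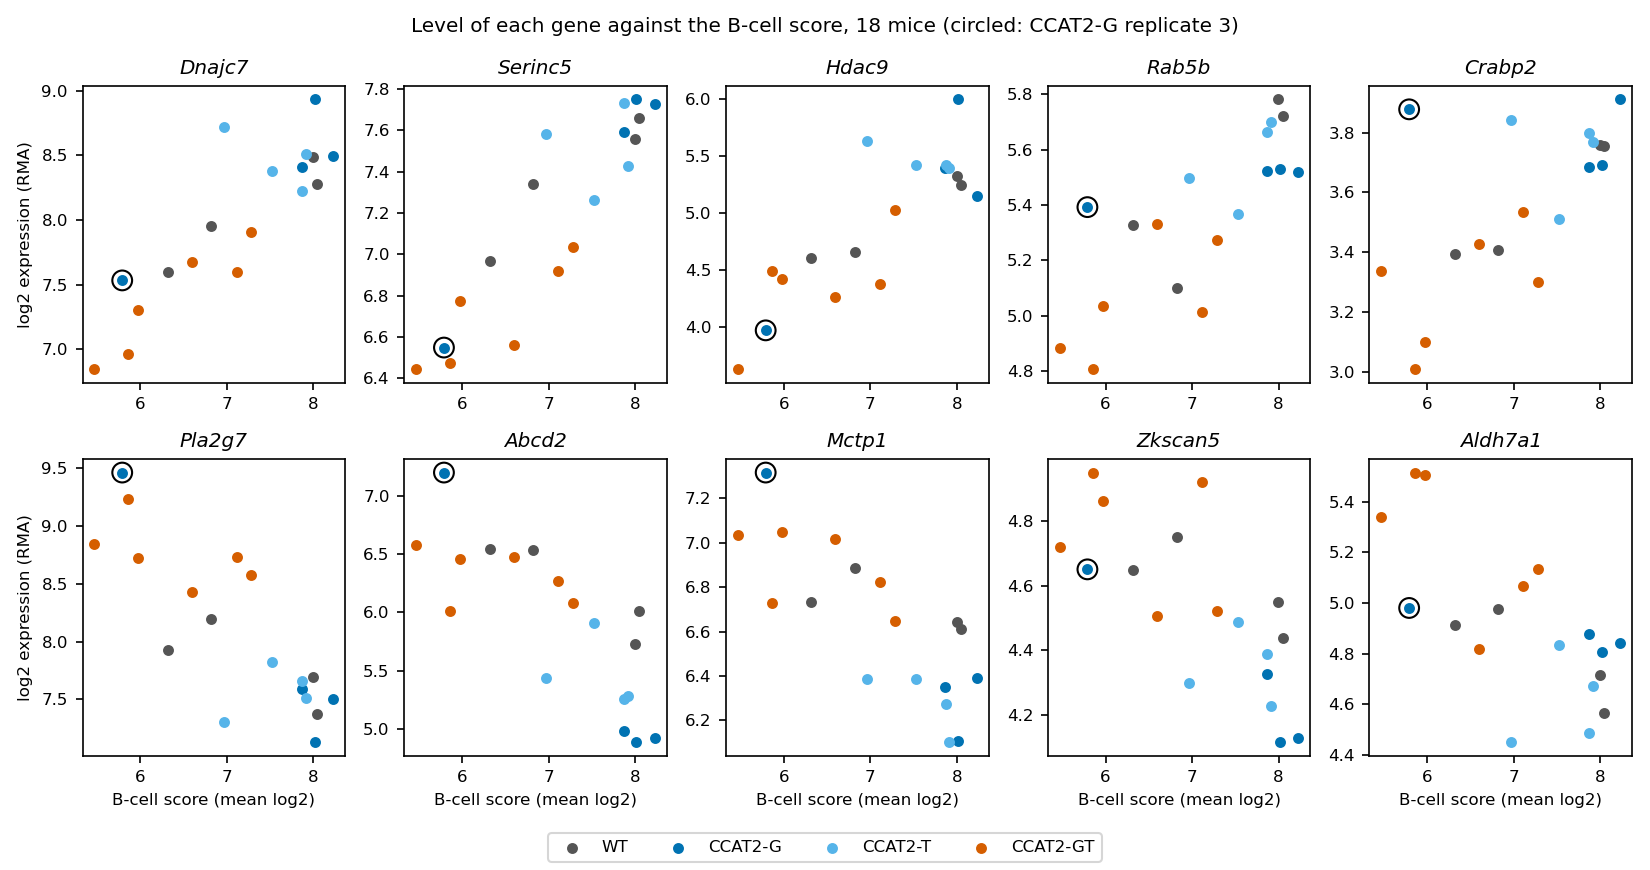
Log2 level of each gene (vertical axis) against the B-cell score of the same marrow (horizontal axis, mean log2 level of 43 markers), 1 point per mouse, colour by group, with CCAT2-G replicate 3 circled. The slopes of Dnajc7 and Serinc5 on the score, pooled over the 4 groups, are 0.43 and 0.37, but inside CCAT2-T they are -0.36 and 0.0093. The circled mouse, score 5.79, holds the highest Pla2g7, Abcd2 and Mctp1 levels.

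CCAT2-G replicate 3 decided several of these calls. Without it 3 members passed on the B-cell score (background 13.3%): Dnajc7 with 0.40 (adjusted p = 0.0230), Serinc5 with 0.28 (adjusted p = 0.0243) and Rab5b with 0.25 (adjusted p = 0.0317), in limma. Hdac9 then had a slope of 0.35 (adjusted p = 0.0643), and the negative slopes of Abcd2, Pla2g7 and Mctp1 shrank to -0.26, -0.20 and -0.13 (adjusted p = 0.0736, 0.171 and 0.186). Rab5b was near the threshold in all 18 mice. Its call was lost, with slopes from 0.15 to 0.18, on leaving out any WT mouse, CCAT2-G replicate 1, CCAT2-T replicate 1 or 2, or CCAT2-GT replicate 2, 3 or 6. Zkscan5 gained a call without CCAT2-GT replicate 2 or 5 or CCAT2-T replicate 3, with slopes from -0.17 to -0.16.

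The B-cell score moved with the spread of the arrays (r of deviations from group means -0.71, n = 18). Among the 13 arrays of wider spread, 3 members passed where 1.04% of all genes did: Dnajc7 with 0.51 (adjusted p = 0.0199), Hdac9 with 0.60 (adjusted p = 0.0479) and Serinc5 with 0.39 (adjusted p = 0.0495). The slopes of Abcd2, Pla2g7 and Mctp1 there were -0.57, -0.56 and -0.31 and did not pass. The 5 narrow arrays hold no CCAT2-GT mouse and are too few for a fit of their own.

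The slope on the myeloid score asked the same of neutrophil and monocyte content. Of the 10 genes 5 passed (limma, Benjamini-Hochberg), where 24.9% of other genes did. Abcd2 rose by 1.94 ± 0.33 per log2 unit of score (adjusted p = 0.00115), Mctp1 by 0.89 ± 0.19 (adjusted p = 0.00513) and Pla2g7 by 1.29 ± 0.43 (adjusted p = 0.0376), with 13.4% of genes called positive. Serinc5 fell with a slope of -0.95 ± 0.26 (adjusted p = 0.0174) and Hdac9 with -1.21 ± 0.40 (adjusted p = 0.0357), with 11.5% of genes called negative. Slopes of Dnajc7 (-0.59 ± 0.39), Rab5b (-0.32 ± 0.21), Zkscan5 (0.30 ± 0.19), Aldh7a1 (0.10 ± 0.22) and Crabp2 (-0.01 ± 0.19) did not pass, the lowest adjusted p being 0.240.

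Abcd2 was the one of these that passed without CCAT2-G replicate 3, with 0.99 ± 0.30 (adjusted p = 0.0415; background 14.7%), while Pla2g7 dropped to 0.02 ± 0.39, Mctp1 to 0.45, Serinc5 to -0.44 and Hdac9 to -0.48. Leaving out WT replicate 1 or WT replicate 3 also took the calls of Pla2g7 and Hdac9, and left 3 calls. Pla2g7 further lost its call without CCAT2-G replicate 1 or 2 or CCAT2-T replicate 4, with slopes from 1.25 to 1.31. Among the 13 wider arrays Abcd2 (2.32) and Mctp1 (1.16) passed, against 2.81% of all genes. Against the neutrophil markers alone 3 members passed (background 8.42%), and against the monocyte markers alone the lowest adjusted p was 0.0781, for Abcd2 (background 22.5%).

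**Figure D3:**
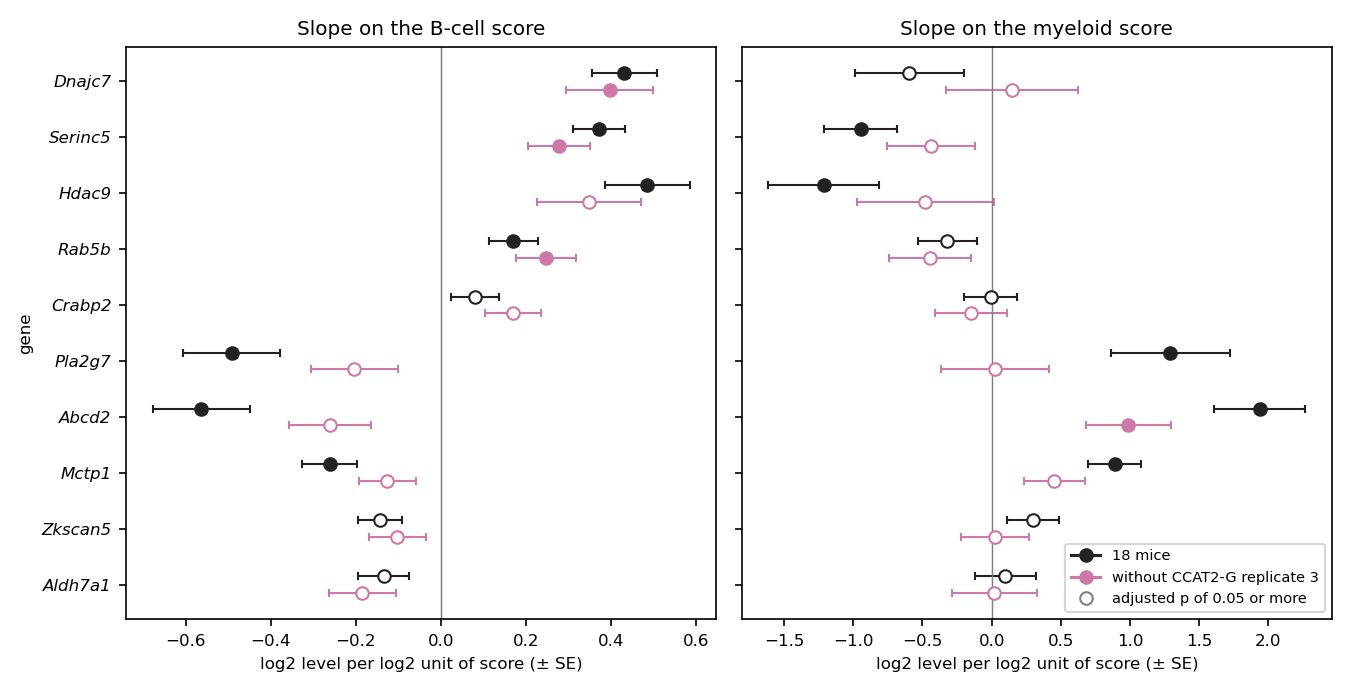
Slope of each gene on the B-cell score (left) and on the myeloid score (right) within groups, in log2 level per log2 unit of score with SE, for 18 mice (black) and without CCAT2-G replicate 3 (pink); open points have an adjusted p of 0.05 or more. Without that mouse filled points remain for Dnajc7, Serinc5 and Rab5b on the B-cell score and for Abcd2 on the myeloid score.

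The scores were not independent of each other, with r = -0.76 over the 18 mice and -0.67 for deviations from group means. With both scores in the model, Dnajc7 (0.56 ± 0.09, adjusted p = 0.00124) and Serinc5 (0.32 ± 0.08, adjusted p = 0.0205) kept a slope past the threshold on the B-cell score, where 10.2% of genes did. Abcd2 alone passed on the myeloid score (1.31 ± 0.39, adjusted p = 0.0305), where 14.4% of genes did. Hdac9 had an adjusted p of 0.0532 on the B-cell score in that limma fit. Whether slopes differed between DRAI+ and DRAI- mice was also tested, and the lowest adjusted p among members was 0.264 on the B-cell score, for Abcd2, and 0.404 on the myeloid score, for Pla2g7.

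The group difference itself shrank to different degrees when the B-cell score entered the model as a covariate, which is given as a description. Crabp2 kept 80.9% of its difference (-0.38 ± 0.11), Aldh7a1 68.5% (0.33 ± 0.12), Zkscan5 60.8% (0.25 ± 0.10), Rab5b 58.4% (-0.27 ± 0.11) and Dnajc7 52.0% (-0.53 ± 0.15). The shares were 44.3% for Pla2g7, 43.7% for Serinc5, 40.5% for Hdac9 and 36.5% for Mctp1, and the difference of Abcd2 went from 0.82 to 0.18 ± 0.23. A slope on the score that is small beside the gene's difference leaves that difference nearly unchanged, so these shares restate slopes and differences together. With the myeloid score in its place Crabp2 kept 99.6% and Aldh7a1 94.6%, and Mctp1 and Abcd2 kept 48.3% and 35.6%. Both shares of Crabp2 rest on a difference in which the DRAI+ mean lay under the filter on low values.

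**Figure D4:**
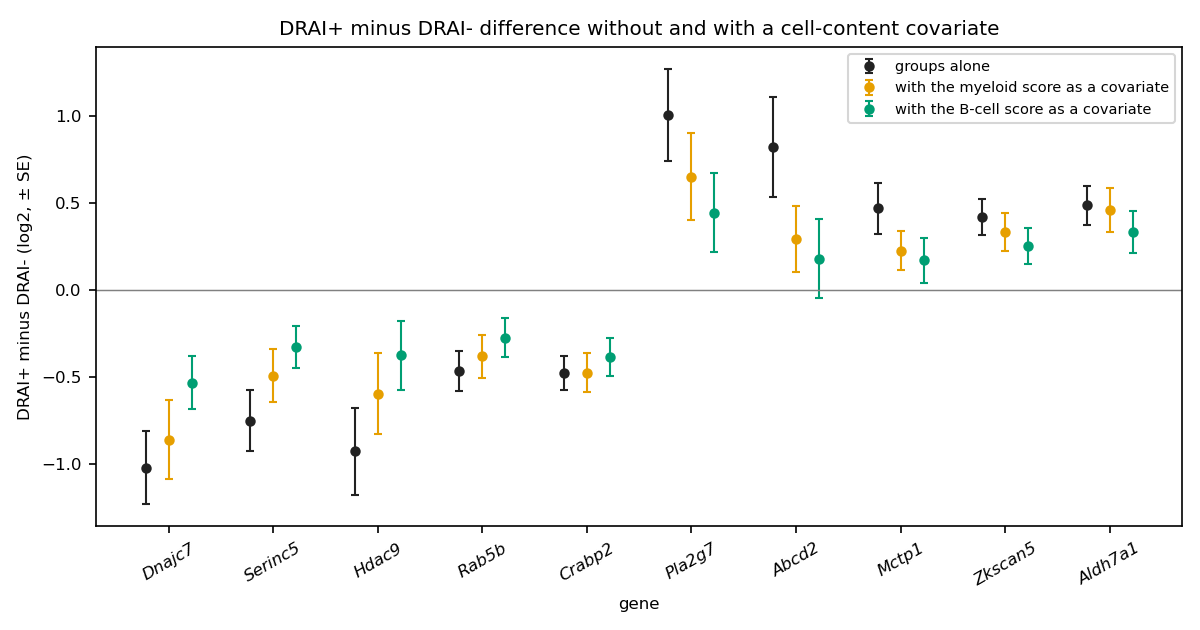
DRAI+ minus DRAI- difference (log2, with SE) of each gene from the groups alone (black), with the myeloid score as a covariate (orange) and with the B-cell score as a covariate (green). The Crabp2 difference stays at -0.38 with the B-cell score against -0.48 without it, and that of Abcd2 goes from 0.82 to 0.18.

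Other cell markers were set beside the members as correlations of deviations from group means over 18 arrays, which share one normalization, and are descriptions. Dnajc7 and Hdac9 followed the dendritic cell markers (r = 0.83 and 0.79) about as closely as the B-cell score (r = 0.83 and 0.78), and Serinc5 followed the B-cell precursor markers with r = 0.90. Abcd2 and Mctp1 followed the neutrophil markers (0.74 and 0.84) more closely than the monocyte markers (0.53 and 0.37). Crabp2 ran against the megakaryocyte markers (-0.72) and the stroma, bone and endothelium markers (-0.55), and Aldh7a1 ran with both (0.65 and 0.55). These correlations rested on the 3 stroma-rich arrays. Without them, over 15 arrays, they were -0.38 and 0.02 for Crabp2 and 0.22 and 0.07 for Aldh7a1, and the DRAI+ minus DRAI- differences were -0.36 for Crabp2 and 0.35 for Aldh7a1.

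Between members, Abcd2 and Mctp1 had the closest deviations (r = 0.93), followed by Dnajc7 and Hdac9 (0.86) and Serinc5 and Abcd2 in opposite directions (-0.86). Crabp2 and Aldh7a1 ran opposite to each other (-0.78). Over all genes, Dnajc7 was most like Wdfy4 (0.95) and Sox4 (0.95), Serinc5 most like Rai1 (0.93) and Cd72 (0.92), Hdac9 most like Dyrk2 (0.97) and Ccnd1 (0.96), and Rab5b most like Dcc (0.92) and Nol6 (0.92). Sox4 and Cd72 are themselves markers in the B-cell score. Mctp1 was most like Scrg1 (0.96) and Sqor (0.95), Abcd2 most like Ctbs (0.96) and Aktip (0.94), and Pla2g7 most like Stfa2l1 (0.89) and Plekhf2 (0.88). The nearest genes of Crabp2 were Ptprk (0.89) and Ifitm7 (0.88), those of Aldh7a1 Mnd1 (0.88) and Ccdc32 (0.84), and those of Zkscan5 Snap23 (0.84) and Tubgcp2 (0.82).

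Probesets of the same gene differed in several cases. Abcd2 had 4 probesets, and DRAI+ minus DRAI- was 0.82, 0.98, 0.41 and 0.32 in them, all in one direction. In the faintest, with a mean level of 3.51, the WT and DRAI- means were alike (3.41 and 3.40) and the DRAI+ mean was 3.73. In the others the DRAI- mean lay below those of both WT and DRAI+ mice. Rab5b had a second probeset, with a mean level of 4.66, in which the difference was -0.06 ± 0.14 and the slope on the B-cell score -0.18, opposite to that of the first. The other probesets of Zkscan5 (-0.04), Hdac9 (0.03) and Aldh7a1 (-0.07 and -0.01) also showed differences near 0, at mean levels from 3.02 to 3.44, of which the one at 3.02 lay under the filter. Their slopes on the B-cell score were 0.08 ± 0.05 for Zkscan5 and 0.02 ± 0.05 and 0.12 ± 0.05 for Aldh7a1, opposite in sign to the brightest probesets. That of Hdac9, 0.12 ± 0.05, had the same sign as its brightest. Dnajc7, Serinc5, Crabp2, Pla2g7 and Mctp1 had 1 probeset each, so that their values have no such check.

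**Figure D5:**
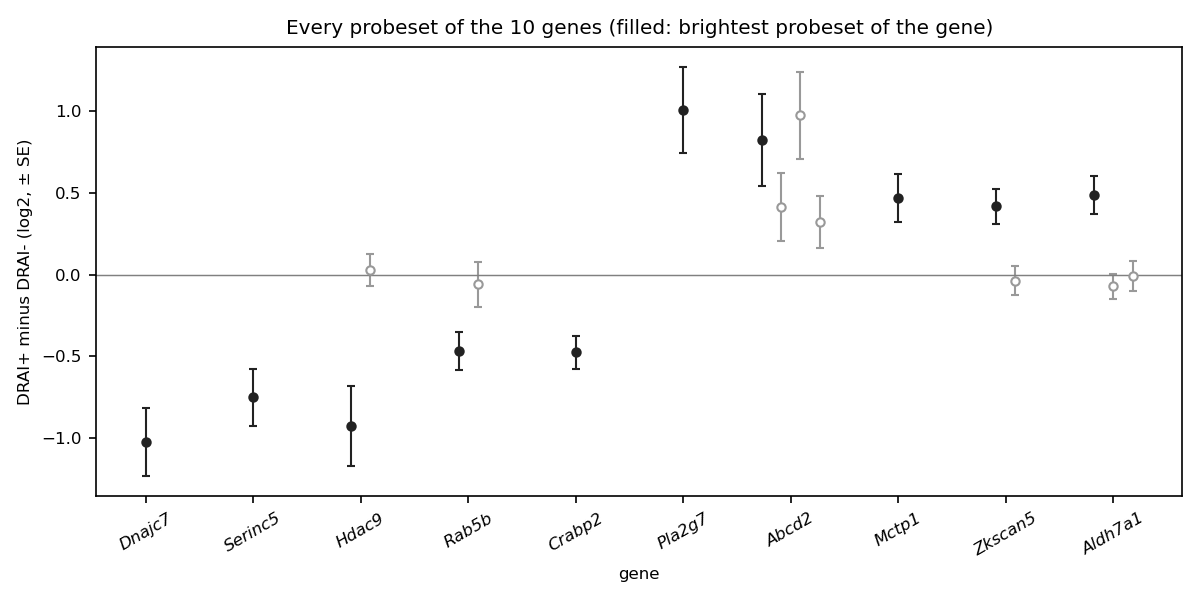
DRAI+ minus DRAI- difference (log2, with SE) of all 18 probesets of the 10 genes, with the brightest probeset of each gene filled. The 4 Abcd2 probesets lie between 0.32 and 0.98, while the second probesets of Rab5b (-0.06), Zkscan5 (-0.04) and Hdac9 (0.03) lie near 0.

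Values of close relatives of the members are given for reference; the members were chosen for a large group difference and the relatives were not, so no comparison of sizes is drawn. Serinc1, Serinc2, Serinc3 and Serinc4 differed by 0.19, -0.10, -0.14 and 0.17 between DRAI+ and DRAI- marrow. Rab5a and Rab5c differed by 0.08 and -0.07, and Zkscan1 and Zkscan14 by -0.11 and -0.01. Of the class IIa deacetylases, Hdac4 and Hdac5 differed by 0.00478 and -0.02 and Hdac7 by -0.21, and Hdac7 rose with the B-cell score (0.24 ± 0.05, adjusted p = 0.00700 in limma) as Hdac9 did. Abcd3 and Abcd4, the other members of the Abcd family measured, differed by 0.15 and 0.03, and Abcd3 fell with the B-cell score by 0.21 ± 0.05 (adjusted p = 0.00717 in limma).

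Pafah2, an intracellular enzyme that acts on the same substrates as Pla2g7, differed by 0.26, fell with the B-cell score by 0.27 ± 0.06 (adjusted p = 0.00715) and rose with the myeloid score by 0.89 ± 0.19 (adjusted p = 0.00450), in limma. Pafah1b1 differed by -0.10. Mctp2 differed by -0.34, opposite to Mctp1, and Aldh2 and Aldh9a1 by 0.01 and 0.16. Stip1 and Stub1, co-chaperones that like Dnajc7 bind through TPR repeats, differed by 0.12 and 0.11. Crabp1, the paralogue of Crabp2, lay under the filter with a mean level of 2.68.

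Around each member a list of pathway genes was read out, 179 measured genes in 10 lists. None passed the test in DRAI+ minus DRAI-, transgenic minus WT or CCAT2-G minus CCAT2-T, as no tested gene did. On the B-cell score 41 of the 179 passed, 22.9% against 22.6% of all genes, and on the myeloid score 52, 29.1% against 24.9%. The share on the B-cell score was thus that of the background. By direction, 12.8% of all genes rose and 9.76% fell with the B-cell score, and the counts of each list below are descriptions with no test of the list.

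In the peroxisome list of Abcd2, 7 of 20 genes fell with the B-cell score and 2 rose, with a median slope of -0.09 against -0.01 over all genes. Those that fell included the transporter Abcd3, the import receptor Pex5 (-0.29 ± 0.09, adjusted p = 0.0300) and the sterol carrier Scp2 (-0.25 ± 0.07, adjusted p = 0.0138), and Cat, catalase, rose (0.61 ± 0.12, adjusted p = 0.00305, limma). In the list of platelet-activating factor and leukotriene genes around Pla2g7, 5 of 18 fell and 1 rose, with a median slope of -0.15. Alox5ap, which presents arachidonic acid to 5-lipoxygenase, fell by 0.29 ± 0.08 (adjusted p = 0.0178), and Pafah1b3, a catalytic subunit of the intracellular enzyme, rose by 0.86 ± 0.07 (adjusted p = 3.41e-07).

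In the deacetylase and MEF2 list of Hdac9, 4 of 17 genes rose with the B-cell score and 0 fell, with a median slope of 0.04. Besides Hdac7 these were Mef2c, a MEF2 factor used by B cells (0.56 ± 0.07, adjusted p = 8.43e-05), Mef2d (0.26 ± 0.07, adjusted p = 0.0147) and the kinase Camk4 (0.14 ± 0.05, adjusted p = 0.0429), in limma. In the endosome list of Rab5b, 3 of 22 rose and 1 fell, among them Rabep2, a RAB5 effector (0.33 ± 0.05, adjusted p = 0.000171). In the sphingolipid list of Serinc5, 1 of 17 rose and 4 fell, and the 4 included Sptlc2, a subunit of serine palmitoyltransferase (-0.26 ± 0.06, adjusted p = 0.0102).

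In the chaperone list of Dnajc7, 0 of 22 rose and 3 fell, opposite in sign to Dnajc7, and they were Fkbp5, Dnajc3 and Bag1 (-0.34, -0.27 and -0.24). In the retinoid list of Crabp2, 2 of 16 rose and 2 fell. The zinc finger list of Zkscan5 had 3 of 17 that rose, Zkscan16, Zkscan17 and Zscan20 (0.22, 0.18 and 0.20), and 0 that fell. The aldehyde and lysine list of Aldh7a1 had 1 of 13 that fell, Gcdh (-0.22 ± 0.06, adjusted p = 0.0213). The calcium-binding C2 list of Mctp1 had 2 of 17 that rose, Doc2a (0.35) and Sytl2 (0.23), and 0 that fell.

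On the myeloid score, with which 13.4% of all genes rose and 11.5% fell, the counts of genes that rose and fell were 6 and 3 of 20 in the peroxisome list, 5 and 2 of 18 in the platelet-activating factor list, and 5 and 1 of 17 in the C2 list. Slc27a4, a fatty acid transporter, rose by 1.44 ± 0.24 (adjusted p = 0.00116), Alox5ap by 1.23 ± 0.17 (adjusted p = 0.000324) and Anxa2, a calcium-binding annexin, by 1.30 ± 0.18 (adjusted p = 0.000365), in limma. They were 5 and 2 of 17 in the sphingolipid list, 7 and 1 of 22 in the endosome list and 5 and 0 of 13 in the aldehyde list, where Aldh2 rose by 1.70 ± 0.35 (adjusted p = 0.00349). In the deacetylase list they were 2 and 2 of 17, in the chaperone list 1 and 0 of 22, in the retinoid list 1 and 1 of 16 and in the zinc finger list 1 and 2 of 17.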

How the data were processed

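Per the submitters' processing notes the values were made with RMA; its version, the software and the probe definitions used are not stated in the labels. The authors deposited log2 values for 45101 probesets and 18 arrays, used here without further normalization. Genes were named from the platform's annotation, which can be old (34958 probesets with 1 symbol, 932 with several, 9211 with none). The brightest probeset stood for a gene, above the 30th percentile of probeset means. Models were fitted with limma 3.58.1 (eBayes with trend) in R 4.3.3 over the 4 groups, with Benjamini-Hochberg adjustment over 14505 genes and a threshold of 0.05, and were tested on simulated data. The number of arrays limits the precision. Members, marker lists and pathway lists were chosen with earlier results of these data known. Named genes are the members, their listed relatives, the 2 genes most like each member, the next gene in rank and, as examples, pathway genes past the threshold.

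Alternatives were another centring, filters, probeset rules, array weights, arrays left out or blocked, other scores and each mouse left out. The marker lists were also read without the stroma-rich arrays, a choice made after seeing the data.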

Additional observations from a re-analysis of the deposited data

Results flagged for a closer look

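Over 50 groups of mice (each gene in the WT, CCAT2-G, CCAT2-T, CCAT2-GT and pooled DRAI- groups), 9 had a mouse set apart from the rest by Dixon's criterion. Chance gives about 1 in 20 for a single group. The pooled group holds the CCAT2-G and CCAT2-T mice, and several genes moved together. The 9 are therefore not independent and are not weighed against that share. Of the 9, 8 concerned CCAT2-G replicate 3, the mouse with the lowest B-cell score of the DRAI- group, 5.79, and the highest myeloid score of all, 9.97. Its Serinc5 level of 6.55 lay below the other CCAT2-G mice, the nearest of which was at 7.59, and below the other DRAI- mice, the nearest at 7.26. Its Abcd2 level of 7.20 lay above both, with the nearest mice at 4.99 and 5.91. Within the CCAT2-G group its Rab5b level of 5.39 lay below the nearest, 5.52. Within the DRAI- group its Pla2g7 level was 9.46 (nearest 7.82), its Mctp1 level 7.32 (nearest 6.39) and its Hdac9 level 3.97 (nearest 5.15). The ninth was Hdac9 in CCAT2-T replicate 3, at 5.63 with the nearest mouse at 5.43, where the lowest of the group was 5.39. Dnajc7, Crabp2, Zkscan5 and Aldh7a1 had no mouse set apart in any group.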

How the results depend on the processing

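Dnajc7 and Serinc5 kept their call on the B-cell score under all 35 tested alternatives, Abcd2 its call on the myeloid score under 34 of 35, and Aldh7a1 passed on neither score under any. These alternatives share most of their arrays, and none left out both CCAT2-G replicate 3 and the narrow arrays. Crabp2 passed on the B-cell score once (0.22, without the 2 mice farthest from the median score). Of the 10 members, 7 were called on the B-cell score, against 3 without the narrow arrays, 2 with both scores in the model, 4 without the 2 farthest mice, 5 with a replicate block and 3 to 8 on leaving out single mice. On the myeloid score 5 were called, against 3 with array weights, 2 without the narrow arrays, 2 with them as a block, 2 with a replicate block, 3 on neutrophil markers alone, 0 on monocyte markers alone, 1 with both scores, 1 without the 2 farthest mice and 1 to 5 on leaving out single mice. With array medians centred, the B-cell calls split into 3 positive and 4 negative, against 4 and 3. In the replicate block, Rab5b (0.14) and Pla2g7 (-0.49) lost their calls on the B-cell score, and Mctp1, Pla2g7 and Hdac9 theirs on the myeloid score. The pairing of same-numbered mice was checked by r of their deviations, which was over 0.1 in 11 of 24 pairs. These were 4 of 4 between WT and CCAT2-T (0.19 to 0.57), 3 of 4 between CCAT2-G and CCAT2-T and 0 to 2 of 4 in each other pair of groups. The highest r, 0.67, lay between WT and CCAT2-G. A mouse was closest to its own number in 3 of 4 cases between WT and CCAT2-T, 2 of 4 between WT and CCAT2-G and 0 of 4 otherwise. The numbers were therefore not taken to pair the mice across all 4 groups. Whether they mark shared handling in some groups was not tested. Counts for transgenic minus WT and for CCAT2-G minus CCAT2-T stayed at 0 under every alternative run. Where signs turned the cause was not tested.

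Signs turned for 59 values, 29 of them with a single mouse left out, and in all but 1 the value had not been called. That exception was Rab5b on the B-cell score with the mean of its probesets (-0.0052). The myeloid slope of Crabp2 turned with medians centred (0.083), mean probesets (0.030), without narrow arrays (0.35), narrow arrays as a block (0.35), replicate block (0.086), neutrophil markers (0.14) and both scores (0.31). That of Aldh7a1 turned with mean probesets (-0.17), without narrow arrays (-0.11), with them as a block (-0.10), neutrophil markers (-0.067) and both scores (-0.36). With both scores those of Dnajc7 (0.63), Rab5b (0.092) and Zkscan5 (-0.025) turned, and with mean probesets that of Rab5b (0.080). In CCAT2-G minus CCAT2-T, Abcd2 turned with mean probesets (-0.00101), array weights (-0.20) and the narrow block (-0.12), Crabp2 (-0.028) and Dnajc7 (0.088) with array weights, and Rab5b without narrow arrays (0.048) and with the narrow block (0.0065). In transgenic minus WT, Crabp2 (0.083), Dnajc7 (0.066), Rab5b (0.028) and Hdac9 (0.15) turned without narrow arrays, Crabp2 (0.038) with the narrow block and Hdac9 (0.034) without the Xist-high arrays.

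Leaving out single mice gave, for values that turned, these ranges: in transgenic minus WT -0.084 to 0.038 for Crabp2, -0.28 to 0.022 for Dnajc7 and -0.18 to 0.061 for Hdac9. In CCAT2-G minus CCAT2-T they were -0.012 to 0.098 for Crabp2, -0.31 to 0.15 for Dnajc7, -0.21 to 0.19 for Serinc5, -0.16 to 0.017 for Zkscan5, -0.17 to 0.61 for Pla2g7, -0.0065 to 0.40 for Mctp1, -0.54 to 0.23 for Abcd2 and -0.63 to 0.045 for Hdac9. On the myeloid score they were -0.15 to 0.071 for Crabp2 and -0.75 to 0.15 for Dnajc7.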
